A study of Mus musculus with 9 samples.

Results

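The comparison described here sets lungs of EA-BN-H mice against lungs of untreated COPD mice, with 3 sequenced libraries in each group and 6 of the 9 libraries of the study in all. EA-BN is the ethyl acetate fraction of leaves of Boehmeria nivea, the ramie plant. EA-BN-H mice took it by mouth at 200 mg/kg in 2% DMSO once a day on days 1 to 14, and lipopolysaccharide (LPS) at 0.5 mg/kg with cigarette smoke condensate (CSC) at 12.5 mg/kg was put into the nose on days 1, 6 and 13. COPD mice had the same instillations with the 2% DMSO vehicle by mouth, and 3 libraries of normal controls (NC), which received saline in the nose and the vehicle, are given only as the level without exposure. All animals were male C57BL/6N mice without a genetic change, so the exposed groups share LPS, CSC and DMSO and differ in the fraction. Lungs were taken on day 15; the age of the mice, the hour of collection and whether each library is 1 animal are not given in the sources used here. RNA came from whole lung, so each value mixes all cells of the organ, and fewer cells of a type and less RNA per cell cannot be told apart.

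LPS is a bacterial cell wall component that Toll-like receptors of macrophages and epithelium read as infection, and the response drives interferon and chemokine genes and draws in neutrophils. Smoke condensate adds reactive compounds that cells meet with antioxidant and detoxifying enzymes under the transcription factor Nrf2. Alveolar type 2 cells meanwhile make surfactant, a mix of lipids and proteins, and for this they carry high levels of the enzymes of fatty acid and sterol synthesis, which SREBP factors control. Signals of inflammation, growth and stress hormones also switch on immediate early genes within minutes, among them phosphatases and RNA-binding proteins that shut the signal down again.

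Libraries of the exposed mice held 25232402 to 33523425 estimated counts, and 8301248 to 17295294 of these fell on nuclear protein-coding genes. The defining lung markers were present in every library. Sftpb, a surfactant protein, ranged from 506 to 844 CPM in EA-BN-H and from 572 to 765 CPM in COPD libraries, where CPM are counts relative to a library size that was scaled by the trimmed mean of M values (TMM). Scgb1a1 of club cells ranged from 3589 to 7215 CPM in EA-BN-H and from 2561 to 6527 CPM in COPD libraries. A pair of the EA-BN-H libraries stood apart. In EA-BN-H replicate 3, 7SL RNA, a small RNA of the secretion machinery, took 63.5% of the counts, against 51.0% and 38.2% in EA-BN-H replicates 1 and 2 and 32.5 to 41.0% in COPD libraries. EA-BN-H replicate 2 had the highest level of most interferon and neutrophil gene lists of any library.

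The quasi-likelihood test of edgeR was applied to 18716 genes, and its model held the 9 libraries together. No gene differed at a Benjamini-Hochberg adjusted p under 0.05, 0.0% of those tested, and the adjusted p was 1 for every gene. At an unadjusted p under 0.05 there were 150 genes higher in EA-BN-H (0.801% of those tested) and 146 lower (0.78%). Where the log2 fold change also had to reach 1 in size, the thresholds of the study for differentially expressed genes (DEGs) but applied here to fold changes of edgeR that were not shrunken, 94 genes were higher (0.502%) and 56 lower (0.299%). With shrunken fold changes of DESeq2 the same thresholds gave 58 higher and 19 lower genes. All 3 EA-BN-H values lay above all 3 COPD values for 562 genes (3.0%) and below them for 622 genes (3.32%). If the libraries of both groups could be exchanged, a share of 0.1 of the genes would lack overlap in one direction or the other. A share of 0.05 would have an unadjusted p under 0.05. Both shares are larger than those found here, so neither mark sets a gene apart by itself. The genes described below are therefore those that stood at the ends of this table, and none of them passed the test over all genes in edgeR. DESeq2 called 3 genes, Akr1c19, Cyp26b1 and Gm20517, which are described with their groups. A 95% interval of a log2 fold change, from the same edgeR model, is given for single genes; one that leaves out 0 belongs to an unadjusted p under 0.05 and is not corrected for the number of genes.

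The higher and the lower genes were of unlike kinds. Protein-coding genes made up 93.2% of the 146 lower genes, 60.7% of the 150 higher genes and 80.9% of all genes tested. Among the 150 higher genes were 11 U1 small nuclear RNA genes, 5 small nucleolar or Cajal body RNAs, 5 mitochondrial genes and 55 clone or model genes. Of these kinds the 18716 genes tested held 18, 114, 31 and 3563, and the 146 lower genes held 0, 0, 0 and 10. EA-BN-H replicate 3 held the highest value for 104 of the 150, where replicates 1 and 2 held it for 36 and 10. Over all 18716 genes, EA-BN-H replicates 1, 2 and 3 held the highest value of the exposed libraries for 2632, 4390 and 3632. The lower genes were spread more evenly over the COPD libraries, with the highest value in COPD replicate 1 for 36, in replicate 2 for 60 and in replicate 3 for 50. Their lowest value was in EA-BN-H replicate 1 for 73, in replicate 2 for 26 and in replicate 3 for 46. Over all genes tested these libraries held the lowest value for 4367, 2998 and 3350. Without EA-BN-H replicate 2 the counts at an unadjusted p under 0.05 were 759 higher and 915 lower, and without EA-BN-H replicate 3 they were 70 higher and 100 lower, with no gene past the adjusted p of edgeR in either fit.

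Of 21 enzymes and regulators of fatty acid and sterol synthesis, 5 were lower in EA-BN-H lungs at an unadjusted p under 0.05 and none was higher. Of the 21 genes 19 had a negative log2 fold change and 6 lay below all COPD values, and the median of the list was -0.31, where the median of all genes tested was 0.00. Scd1 makes monounsaturated fatty acids in the endoplasmic reticulum. Its level was 394, 299 and 216 CPM in the EA-BN-H libraries, against 907, 535 and 730 CPM in COPD and 248, 527 and 593 CPM in NC. The EA-BN-H and COPD values did not overlap, and the log2 fold change was -1.26 (standard error 0.38, 95% interval -2.09 to -0.42). Fasn, the fatty acid synthase, stood at 339, 274 and 230 CPM in EA-BN-H, 491, 416 and 357 CPM in COPD and 202, 285 and 269 CPM in NC, again without overlap of the exposed groups (log2 fold change -0.59, 95% interval -1.13 to -0.04). Acaca, which makes the malonyl-CoA that this synthase uses, stood at 47.8, 64.0 and 48.3 CPM in EA-BN-H and at 87.7, 67.3 and 78.2 CPM in COPD, with a log2 fold change of -0.54 (standard error 0.20, 95% interval -0.98 to -0.10).

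On the sterol side, Hmgcs1, which makes the precursor of mevalonate, had 34.1, 35.1 and 33.4 CPM in EA-BN-H, against 57.9, 36.3 and 50.6 CPM in COPD and 54.4, 49.1 and 42.6 CPM in NC. Cyp51, the lanosterol demethylase, had 9.56, 17.6 and 12.4 CPM in EA-BN-H, against 22.2, 19.7 and 20.8 CPM in COPD. COPD replicate 2 was the lowest COPD library for both genes and came close to the EA-BN-H values of Hmgcs1. Their log2 fold changes were -0.50 (standard error 0.20, 95% interval -0.95 to -0.05) and -0.67 (standard error 0.25, 95% interval -1.22 to -0.11). For the regulators of the pathway the values lay closer together. Srebf1 stood at 71.5, 72.8 and 73.6 CPM in EA-BN-H and at 89.0, 65.5 and 69.7 CPM in COPD, and Srebf2 had a log2 fold change of -0.06. Leaving out COPD replicate 1 or EA-BN-H replicate 3 left 1 of the 21 genes at an unadjusted p under 0.05, with list medians of -0.02 and -0.26, and leaving out COPD replicate 3 left 2. Without COPD replicate 1, 13 of the 21 log2 fold changes were negative and 8 positive. The count was 3 when EA-BN-H replicate 1 was left out and 6, with a median of -0.40, when EA-BN-H replicate 2 was.

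**Figure D1:**
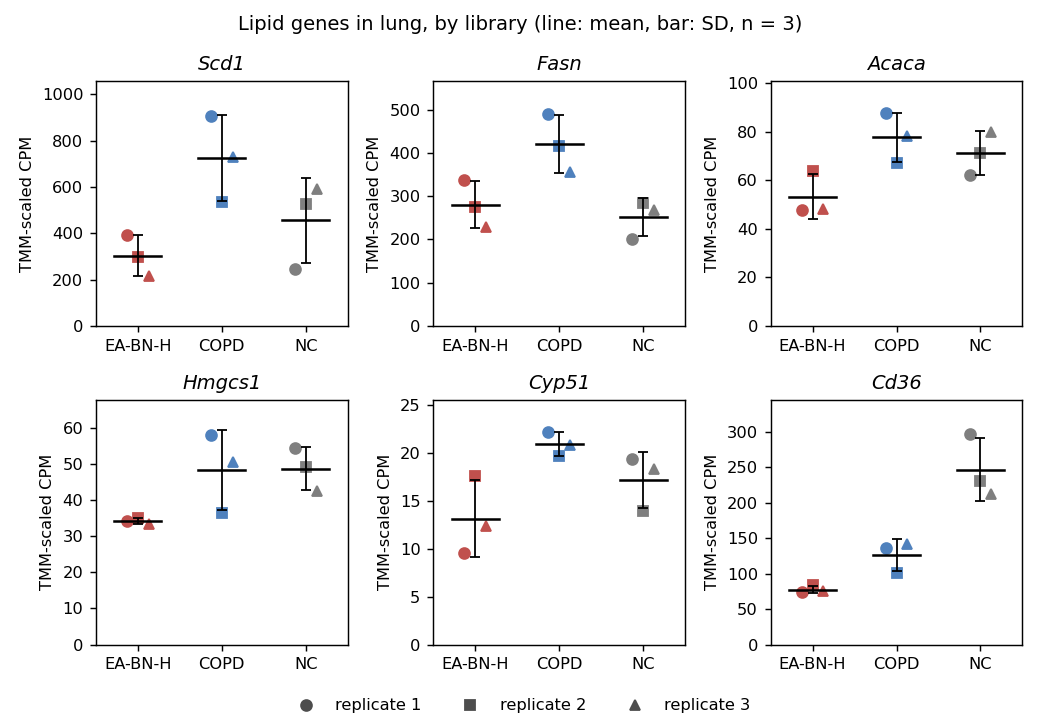
TMM-scaled CPM of Scd1, Fasn, Acaca, Hmgcs1, Cyp51 and Cd36 (y axes, linear from 0) in the 3 libraries of EA-BN-H, COPD and NC (x axes), with symbols for the replicate number, a line for the mean and a bar for the SD (n = 3). In each panel the 3 EA-BN-H points sit below the 3 COPD points, from 216 to 394 CPM against 535 to 907 CPM for Scd1, while NC lies at the EA-BN-H level for Fasn and above both groups for Cd36.

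The 250 bases before the annotated start of 2 of these sterol genes are shown because their letters hold motifs of the kind that SREBP factors and their partner NF-Y are known to read. They come from RefSeq on build GRCm38.p6, which is mm10, and run 5′ to 3′ on the strand of the gene. Hmgcs1 lies at chr13:119690101-119690350 on the plus strand and Cyp51 at chr5:4104698-4104947 on the minus strand. Capitals mark matches on either strand to TCACNCCAC, a sterol response element (SRE), and to CCAAT, the NF-Y box.
Hmgcs1: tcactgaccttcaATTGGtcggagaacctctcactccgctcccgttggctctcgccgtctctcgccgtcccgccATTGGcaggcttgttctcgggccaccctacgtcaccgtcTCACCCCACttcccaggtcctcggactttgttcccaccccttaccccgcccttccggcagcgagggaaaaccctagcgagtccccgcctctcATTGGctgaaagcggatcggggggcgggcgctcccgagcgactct
Cyp51: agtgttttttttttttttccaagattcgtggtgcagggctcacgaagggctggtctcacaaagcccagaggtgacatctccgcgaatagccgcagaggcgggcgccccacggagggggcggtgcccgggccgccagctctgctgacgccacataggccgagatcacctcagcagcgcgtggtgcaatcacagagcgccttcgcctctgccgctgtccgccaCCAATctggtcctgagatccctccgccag
Hmgcs1 holds 1 SRE match and 3 CCAAT matches, and Cyp51 holds 1 CCAAT match and no SRE match. RefSeq promoters were matched for 13 of the 21 genes, with 17 start sites. CCAAT was found in 11 of these 17 windows (64.7%), against 33.8% of 32851 promoters. It was as common in the clock genes described below, with 14 of 20 windows (70.0%), and less so in the immediate early list, with 14 of 37 (37.8%). The SRE letters were in 1 of the 17 windows (5.88%), that of Hmgcs1 shown here, against 1.05% of all promoters. Matches to the 2 motifs do not overlap, and a match describes the sequence only.

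Genes of alveolar type 2 cells lay below COPD levels in EA-BN-H lungs for 15 of 16 list members, with 4 lower at an unadjusted p under 0.05, 6 below all COPD values and a median log2 fold change of -0.61. The list holds Scd1 and Fasn too, so it is not separate from the lipid enzymes. Etv5, a transcription factor that maintains type 2 cells, stood at 40.3, 29.5 and 25.1 CPM in EA-BN-H, against 65.5, 62.2 and 61.8 CPM in COPD and 16.2, 51.3 and 61.2 CPM in NC (log2 fold change -0.998, standard error 0.40, 95% interval -1.89 to -0.10). Cd36 takes up long-chain fatty acids. It stood at 73.5, 83.6 and 75.7 CPM in EA-BN-H, 136, 101 and 142 CPM in COPD and 298, 231 and 212 CPM in NC, with a log2 fold change of -0.70 between the exposed groups (standard error 0.22, 95% interval -1.18 to -0.22). EA-BN-H was thus the lowest of the 3 groups for this gene. The defining marker Sftpc, a surfactant protein particular to type 2 cells, overlapped between the groups, at 806, 234 and 398 CPM in EA-BN-H and 1226, 884 and 597 CPM in COPD. The summed level of the list was 7730, 7470 and 4830 CPM in EA-BN-H and 11500, 7100 and 9040 CPM in COPD. Without EA-BN-H replicate 3, COPD replicate 1 or COPD replicate 2 the count of lower genes was 2 of 16.

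Lists of ciliated, alveolar type 1 and endothelial cells had medians closer to 0. All 12 genes of ciliated cells had a positive log2 fold change (median 0.33), none with an unadjusted p under 0.05, and their sums of 1660, 721 and 2140 CPM in EA-BN-H and 1260, 1030 and 1120 CPM in COPD overlapped, with EA-BN-H replicate 2 the lowest of the 6. Alveolar type 1 genes were negative in 12 of 13, with a median of -0.21, and endothelial genes in 18 of 21, with a median of -0.22. One endothelial gene was lower at an unadjusted p under 0.05, Gpihbp1, which anchors lipoprotein lipase to capillaries, with 5.70, 4.73 and 4.55 CPM in EA-BN-H and 13.8, 8.97 and 6.44 CPM in COPD (log2 fold change -0.96). The part that these shifts between cell types have in the lipid genes was not tested.

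Immediate early genes and the feedback genes of stress kinases were lower in EA-BN-H lungs at an unadjusted p under 0.05 in 6 of 35 genes and higher in none. Of the 35 genes 25 were negative and 5 lay below all COPD values, with a median of -0.24. Dusp1 encodes the phosphatase that switches off p38 and JNK kinases and is induced by both stress and glucocorticoids. Its level was almost the same in the EA-BN-H libraries, at 24.7, 24.6 and 25.3 CPM, against 35.6, 81.3 and 45.4 CPM in COPD and 53.6, 55.4 and 58.2 CPM in NC. The log2 fold change between the exposed groups was -1.12 (standard error 0.27, 95% interval -1.73 to -0.51). It lay between -1.35 and -0.70 when each library was left out in turn, and the smallest difference was found without COPD replicate 2, the library with the most Dusp1.

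The other lower genes shared the high value of COPD replicate 2. Klf4, a transcription factor induced by inflammation and shear, had 26.1, 24.6 and 15.6 CPM in EA-BN-H and 30.4, 55.9 and 32.1 CPM in COPD, with a log2 fold change of -0.83 (95% interval -1.49 to -0.18). Zfp36, which speeds the decay of cytokine messages such as that of TNF, had 36.1, 37.3 and 38.1 CPM in EA-BN-H and 43.3, 68.1 and 51.5 CPM in COPD (log2 fold change -0.55, 95% interval -1.09 to -0.0020). Errfi1, a feedback inhibitor of the EGF receptor that was listed with the glucocorticoid-responsive genes, had 25.6, 26.5 and 22.4 CPM in EA-BN-H, 32.6, 81.2 and 37.3 CPM in COPD and 46.3, 43.1 and 47.6 CPM in NC, with a log2 fold change of -1.02 (95% interval -1.71 to -0.33). None of these 3 overlapped between the exposed groups. Nr4a1, an orphan nuclear receptor, and Fos, a subunit of AP-1, did overlap. Nr4a1 had 12.4, 10.4 and 16.6 CPM in EA-BN-H, against 13.3, 49.6 and 34.7 CPM in COPD, and Fos had 17.8, 18.6 and 25.4 CPM in EA-BN-H, against 22.7, 46.0 and 44.3 CPM in COPD. Their log2 fold changes were -1.31 (95% interval -2.22 to -0.40) and -0.87 (95% interval -1.69 to -0.06).

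Not all members lay low. Jun, the partner of Fos, stood at 104, 117 and 71.7 CPM in EA-BN-H and 85.2, 121 and 90.3 CPM in COPD, and Ier5, a regulator of heat shock factor activity, was the 1 gene above all COPD values, at 49.1, 62.0 and 45.1 CPM in EA-BN-H and 40.0, 32.8 and 43.4 CPM in COPD. The count of 6 lower genes was 1 without COPD replicate 2, 3 without COPD replicate 3 or EA-BN-H replicate 3 (where 1 gene was higher), 4 without EA-BN-H replicate 1 and 10 without EA-BN-H replicate 2.

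**Figure D2:**
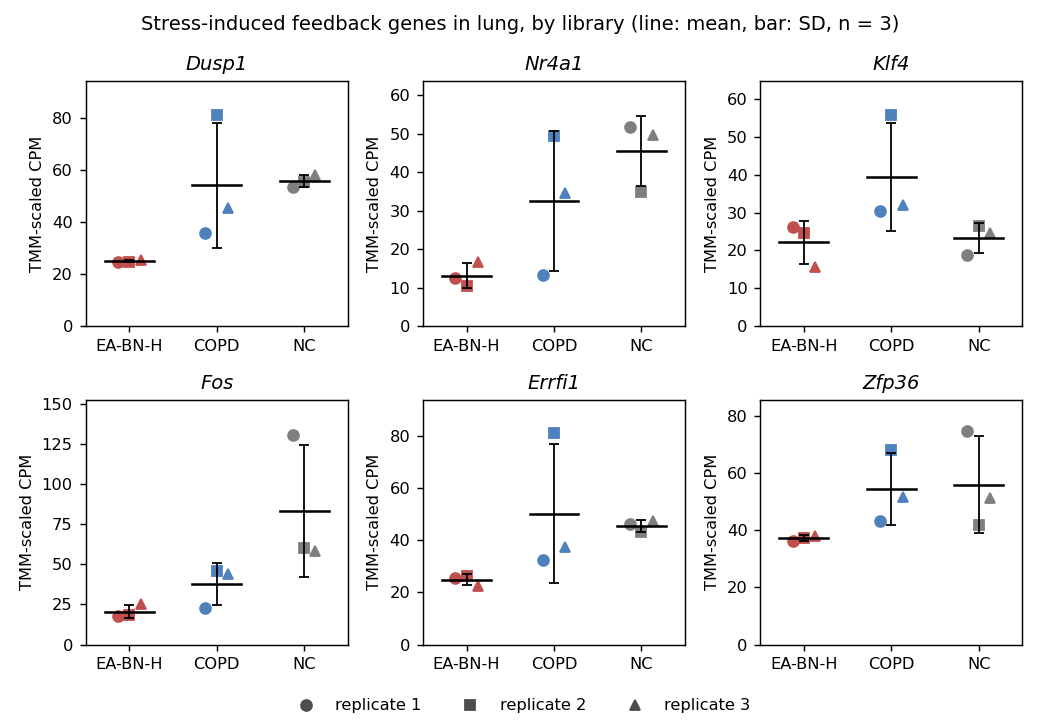
TMM-scaled CPM of Dusp1, Nr4a1, Klf4, Fos, Errfi1 and Zfp36 (y axes, linear from 0) in the libraries of EA-BN-H, COPD and NC (x axes), drawn with symbols for the replicate number, a line for the mean and a bar for the SD (n = 3). The 3 EA-BN-H points of Dusp1 lie together at 24.6 to 25.3 CPM, below COPD at 35.6 to 81.3 CPM, and COPD replicate 2 is the highest COPD point in all 6 panels.

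The 250 bases before the start of Dusp1 are shown since it had the smallest unadjusted p of the group and its promoter holds a cyclic AMP response element (CRE), the motif of the CREB and ATF factors. The stretch is from RefSeq, GRCm38.p6, chr17:26508473-26508722 on the minus strand, and capitals mark the CRE (TGACGTCA) and the E-box (CACGTG), the motif of the clock factors and their relatives. Both read alike on either strand.
Dusp1: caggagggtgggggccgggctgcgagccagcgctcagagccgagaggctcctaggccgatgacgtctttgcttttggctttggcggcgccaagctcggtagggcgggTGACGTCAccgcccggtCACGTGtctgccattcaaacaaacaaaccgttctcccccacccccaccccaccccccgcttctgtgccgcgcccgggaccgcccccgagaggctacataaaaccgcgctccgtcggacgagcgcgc
Among 37 start sites of 28 genes of the list, the CRE letters were in 3 (8.11%), against 1.55% of all promoters, and the E-box letters in 7 (18.9%), against 6.02%. These are descriptions of the sequences and say nothing of which factor was bound.

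Genes of the circadian clock lay above COPD levels in some cases and below them in others. Per2, a repressor of the clock, had 105, 54.1 and 115 CPM in EA-BN-H, against 40.5, 68.0 and 38.6 CPM in COPD and 50.8, 29.4 and 28.8 CPM in NC (log2 fold change 0.90, standard error 0.35, 95% interval 0.11 to 1.68). Arntl, also called Bmal1, the activator that works in the opposite phase, had 3.37, 6.01 and 5.83 CPM in EA-BN-H, 7.69, 8.69 and 8.01 CPM in COPD and 16.0, 13.0 and 13.6 CPM in NC (log2 fold change -0.68, standard error 0.26, 95% interval -1.27 to -0.09). Arntl did not overlap between the exposed groups, while Per2 did, since EA-BN-H replicate 2 lay within the COPD range. Cry1, another repressor, stood above all COPD values at 12.5, 16.1 and 14.8 CPM in EA-BN-H, against 10.2, 9.64 and 10.4 CPM in COPD. Per3 at 146, 50.9 and 161 CPM in EA-BN-H and 55.3, 95.04 and 55.3 CPM in COPD followed the pattern of Per2.

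Dbp, an output factor of the clock, repeated it at 96.6, 23.5 and 79.9 CPM in EA-BN-H and 36.6, 42.9 and 30.7 CPM in COPD. In all 3 genes EA-BN-H replicates 1 and 3 were high, and EA-BN-H replicate 2 lay near or under the COPD libraries. Over the 18 clock genes 12 were positive, 1 was higher and 1 lower at an unadjusted p under 0.05, and the median log2 fold change was 0.35. The count of higher clock genes was 8 when EA-BN-H replicate 2 was left out, and 0 without EA-BN-H replicate 1 or 3, without COPD replicate 1 or 3 and with a replicate block. The median was 0.20 without EA-BN-H replicate 1. E-box letters were in 6 of 20 promoters of 15 clock genes (30.0%), against 6.02% of all promoters. The hour at which each lung was taken is not given in the sources used here.

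Among genes with a mean of at least 50 counts per exposed library the smallest unadjusted p was that of Cyp26b1, which breaks down retinoic acid. It had 2.32, 1.52 and 0.963 CPM in EA-BN-H, against 8.72, 19.4 and 6.21 CPM in COPD and 13.9, 34.0 and 25.96 CPM in NC. The log2 fold change between the exposed groups was -2.82 (standard error 0.52, 95% interval -3.98 to -1.66), and DESeq2 called it at an adjusted p of 0.00076. EA-BN-H was the lowest of the 3 groups, without overlap with either of the others. Of the 13 genes tested in the retinoic acid list no other had an unadjusted p under 0.05, and the median of the list, Cyp26b1 included, was 0.01.

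Akr1c19, a member of the aldo-keto reductase family, had no count in any EA-BN-H library and 1.21, 1.84 and 1.26 CPM in COPD, which is at least 11.9-fold lower in EA-BN-H when 3 counts per library are taken as the floor. DESeq2 gave it an adjusted p of 0.000546, and the family has close copies among which counting can split reads. The third gene that DESeq2 called, the model gene Gm20517 (adjusted p = 0.0458), stood at 11.8, 0.238 and 8.78 CPM in EA-BN-H and 0.115, 0.106 and 0.315 CPM in COPD, so it overlapped through EA-BN-H replicate 2.

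Ptgs1, the constitutive cyclooxygenase that starts prostaglandin synthesis, was lower at 41.0, 38.9 and 30.4 CPM in EA-BN-H, against 60.8, 60.9 and 54.3 CPM in COPD and 40.1, 49.3 and 40.0 CPM in NC. Its spread within each group was small, and the log2 fold change was -0.67 (standard error 0.18, 95% interval -1.08 to -0.27). Ptgs2, the inducible form of the enzyme, overlapped at 21.4, 44.3 and 27.3 CPM in EA-BN-H and 33.0, 11.1 and 29.5 CPM in COPD. Among matrix genes Postn, which encodes periostin of remodelling tissue, had 51.5, 56.9 and 53.4 CPM in EA-BN-H, 85.0, 72.6 and 87.2 CPM in COPD and 73.2, 99.5 and 84.7 CPM in NC (log2 fold change -0.60, standard error 0.18, 95% interval -0.9985 to -0.20). Eln, the elastin gene, stood at 203, 58.1 and 149 CPM in EA-BN-H and 242, 340 and 206 CPM in COPD, a log2 fold change of -0.94 (95% interval -1.92 to 0.04), and Fbln5, which organises elastic fibres, had a log2 fold change of -0.62 with overlap between the groups. Fibroblast and matrix genes as a list were lower at an unadjusted p under 0.05 in 2 of 28 (median -0.17). Their median was -0.003 without EA-BN-H replicate 3 and 0.03, with 14 genes positive and 14 negative, without COPD replicate 1. Without EA-BN-H replicate 2 it was -0.19, with 3 genes higher and 4 lower at an unadjusted p under 0.05.

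Further genes below all COPD values included genes known from epithelium. Krt23, a keratin of epithelial cells, had 1.76, 2.74 and 2.94 CPM in EA-BN-H, 4.81, 5.05 and 4.01 CPM in COPD and 14.0, 13.6 and 12.3 CPM in NC (log2 fold change -0.90, 95% interval -1.50 to -0.30). Tspan8, an epithelial tetraspanin, had 5.70, 8.18 and 4.66 CPM in EA-BN-H and 15.7, 12.1 and 16.0 CPM in COPD (log2 fold change -1.24, 95% interval -2.02 to -0.45). Cftr, the chloride channel of airway and alveolar epithelium, differed less, at 13.2, 11.6 and 11.3 CPM in EA-BN-H and 17.4, 14.3 and 18.2 CPM in COPD (log2 fold change -0.47). Cttnbp2, a protein bound to cortactin, had 2.02, 2.08 and 2.41 CPM in EA-BN-H and 3.97, 7.35 and 4.32 CPM in COPD (log2 fold change -1.26, 95% interval -2.10 to -0.43). Lama1, a laminin chain of basement membranes, had 7.23, 5.92 and 2.25 CPM in EA-BN-H and 8.61, 13.6 and 21.4 CPM in COPD (log2 fold change -1.49). Cilp, a cartilage matrix protein, Apold1, an early response gene of endothelium, and Mag, a myelin glycoprotein, stood below 10 CPM in all exposed libraries, with log2 fold changes of -1.64, -1.27 and -1.22. Leaving out clone and model genes, 19 genes with at least 50 counts per library on average met the DEG thresholds without overlap below COPD, and 15 met them above it.

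Markers of mesothelium, the cell layer on the lung surface, were lower at an unadjusted p under 0.05 in 3 of 7 genes (median -1.28). With at least 10 counts in each exposed library 1 of 4 genes was lower, with a median of -0.54, and the median of the 7 was -0.78 with shrunken fold changes. Muc16, a surface mucin with few counts, had 0, 0.327 and 0 CPM in EA-BN-H, 2.99, 2.51 and 2.29 CPM in COPD and 20.25, 1.85 and 2.68 CPM in NC. Msln, which had more counts, stood at 7.27, 11.96 and 7.55 CPM in EA-BN-H and 12.18, 18.87 and 34.25 CPM in COPD. In NC it had 8.23, 3.55 and 3.40 CPM. In all, 4 of the 7 genes lay below all COPD values, Msln by a narrow margin. The list summed to 112, 84.0 and 108 CPM in EA-BN-H and 120, 109 and 140 CPM in COPD. The defining markers Wt1 and Calb2 had too few counts to be tested. Cardiac muscle genes, which come from heart or from the sleeve of the pulmonary veins, were negative in 11 of 13 (median -0.65). One of them, Myl7, an atrial myosin light chain, was at 2.59, 0.565 and 1.02 CPM in EA-BN-H and 9.50, 1.24 and 9.87 CPM in COPD. Other muscle genes among the DEGs lower in EA-BN-H included Ttn, Mb, Csrp3, Pln, Srl, Hrc and Trdn. Each was lowest in COPD replicate 2 among the COPD libraries. Ttn had 82.8, 50.9 and 64.4 CPM in EA-BN-H and 118, 61.4 and 258 CPM in COPD. Mb had 0, 0.268 and 0 CPM in EA-BN-H and 0.835, 0 and 3.52 CPM in COPD. Myh7b, also a muscle gene, was a DEG higher in EA-BN-H, with a mean of 1.17 counts per exposed library. The summed cardiac level was 165, 77.2 and 202 CPM in EA-BN-H, 196, 130 and 282 CPM in COPD and 510, 427 and 194 CPM in NC, so all 3 groups held such RNA. The part that such RNA has in the other differences was not tested.

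Among named protein-coding genes above all COPD values, Gabre, the epsilon subunit of the GABA-A receptor, had the largest log2 fold change, 1.60 (standard error 0.43, 95% interval 0.64 to 2.55). It had 6.78, 2.89 and 9.21 CPM in EA-BN-H, against 1.90, 2.08 and 2.23 CPM in COPD and 9.79, 5.97 and 5.47 CPM in NC. Hif3a, a member of the hypoxia-inducible factor family, had 5.36, 3.93 and 6.05 CPM in EA-BN-H and 1.84, 2.58 and 0.916 CPM in COPD (log2 fold change 1.52, standard error 0.46, 95% interval 0.51 to 2.54). Fkbp5, the best known glucocorticoid-induced chaperone, overlapped at 26.8, 32.5 and 17.7 CPM in EA-BN-H and 14.3, 17.0 and 18.2 CPM in COPD. Hspa1b, a heat shock protein, had 21.8, 8.18 and 16.7 CPM in EA-BN-H and 8.03, 6.04 and 9.67 CPM in COPD (log2 fold change 0.97), also with overlap. B3galt1, a galactosyltransferase, had 2.85, 3.06 and 5.73 CPM in EA-BN-H and 1.07, 1.87 and 1.75 CPM in COPD (log2 fold change 1.31), and B3gnt4, an acetylglucosaminyltransferase, had 5.62, 3.84 and 12.4 CPM in EA-BN-H and 3.28, 2.58 and 3.15 CPM in COPD (log2 fold change 1.27). Erdr1, which had 11.1, 12.6 and 23.3 CPM in EA-BN-H and 3.97, 7.70 and 7.21 CPM in COPD, has several near-identical copies and its value is uncertain. Of 12 glucocorticoid-responsive genes Fkbp5 was higher and Errfi1 was lower at an unadjusted p under 0.05.

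Genes that Nrf2 controls and antioxidant enzymes were positive in 26 of 31 cases, with 2 higher at an unadjusted p under 0.05, 4 above all COPD values and a median log2 fold change of 0.17. Osgin1, an oxidative stress-induced growth inhibitor, had 15.5, 12.1 and 14.7 CPM in EA-BN-H, 7.02, 9.93 and 8.87 CPM in COPD and 19.0, 12.6 and 9.44 CPM in NC (log2 fold change 0.71, standard error 0.28, 95% interval 0.08 to 1.34). Gpx2, an epithelial glutathione peroxidase, had 19.2, 16.5 and 25.7 CPM in EA-BN-H, 15.9, 7.49 and 12.8 CPM in COPD and 35.5, 29.3 and 19.9 CPM in NC (log2 fold change 0.76, standard error 0.32, 95% interval 0.05 to 1.47). For both genes all EA-BN-H values lay above COPD and below the highest NC library. Other members overlapped. Hmox1, the inducible heme oxygenase, stood at 12.4, 31.5 and 12.4 CPM in EA-BN-H and 21.9, 10.4 and 28.6 CPM in COPD, and Nfe2l2, the gene of Nrf2 itself, at 75.5, 106 and 66.5 CPM in EA-BN-H and 82.8, 59.1 and 91.9 CPM in COPD. Without EA-BN-H replicate 1, EA-BN-H replicate 3 or COPD replicate 3 no gene was higher at an unadjusted p under 0.05, with 27, 29 and 29 of the 31 positive. Without EA-BN-H replicate 2, 5 were higher and 1 lower, with 18 positive. The median of the list was -0.04 without COPD replicate 2, with 1 gene higher and 15 positive. Scaled by library totals alone the median was -0.21, with no gene higher, where the median of all genes is -0.41.

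Higher RNAs of the mitochondrion and of small nuclear genes went together with EA-BN-H replicate 3. Rmrp, the RNA of a nuclear and mitochondrial ribonuclease, had 7838, 9748 and 25080 CPM in EA-BN-H and 6146, 4353 and 3916 CPM in COPD, without overlap (log2 fold change 1.57, 95% interval 0.47 to 2.66). The mitochondrial 16S ribosomal RNA mt-Rnr2 had 20970, 19770 and 61150 CPM in EA-BN-H and 11820, 17550 and 10910 CPM in COPD. All 13 mitochondrially encoded protein genes were positive, 2 of them at an unadjusted p under 0.05, with a median of 0.88, and without EA-BN-H replicate 3 none had such a p and the median was 0.26. Those 2, ATP8 and ND4L, overlap ATP6 and ND4 in the genome and may share their reads. The 18 U1 genes, copies of the RNA that marks the start of introns for splicing, summed to 343, 256 and 734 CPM in EA-BN-H and 165, 252 and 77.4 CPM in COPD. Of these 17 were positive and 11 were higher at an unadjusted p under 0.05, but the copies are near-identical and can share reads. The 7SL share of 63.5% in EA-BN-H replicate 3 stands beside all of these values, and its part in them was not tested. Endog, a nuclear-encoded mitochondrial nuclease, also had its highest value in EA-BN-H replicate 3, with 28.4, 15.7 and 49.8 CPM in EA-BN-H and 15.3, 12.5 and 10.6 CPM in COPD (log2 fold change 1.29, 95% interval 0.34 to 2.23).

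The genes of the response to LPS did not separate the treated from the untreated exposed lungs. Interferon-inducible GTPases, type I interferon-stimulated genes, CXC and CC chemokines, cytokines and their receptors, neutrophil genes and the 11 MHC class II and costimulation genes had no list member at an unadjusted p under 0.05 in either direction. The GTPases, which attack pathogen vacuoles, summed to 824, 5790 and 1630 CPM in EA-BN-H, against 2380, 1300 and 2850 CPM in COPD and 147, 249 and 346 CPM in NC. Neutrophil genes summed to 107, 474 and 139 CPM in EA-BN-H, 221, 160 and 386 CPM in COPD and 19.3, 28.8 and 23.9 CPM in NC. In both lists EA-BN-H replicates 1 and 3 lay at the low end of the COPD range or under it, EA-BN-H replicate 2 lay above it, and every exposed library lay above NC. CXC chemokines summed to 314, 1150 and 275 CPM in EA-BN-H, 783, 323 and 811 CPM in COPD and 393, 343 and 396 CPM in NC, so EA-BN-H replicates 1 and 3 and COPD replicate 2 lay below all NC libraries. For MHC class II genes, which present antigen, EA-BN-H replicate 2 lay within the COPD range, at 3320 CPM against 1630 to 3440 CPM. H2-Eb2, a class II gene outside that list, lay below all COPD values at 0.937, 1.90 and 1.39 CPM in EA-BN-H, against 2.59, 2.44 and 5.35 CPM in COPD and 1.23, 2.18 and 0.787 CPM in NC (log2 fold change -1.29, 95% interval -2.50 to -0.077), and class II genes have close copies that can share reads.

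**Figure D3:**
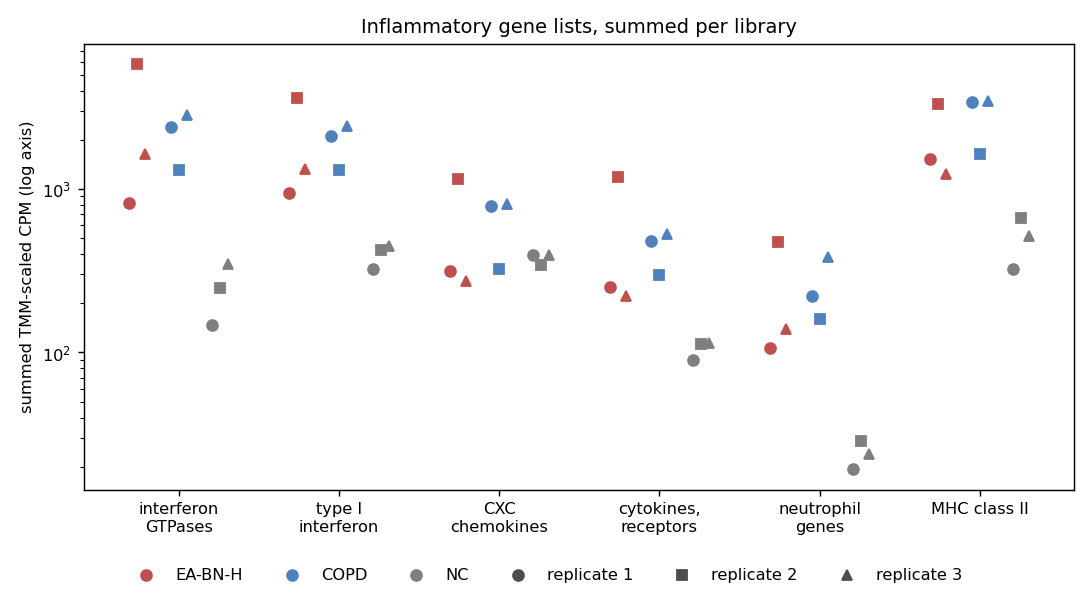
Summed TMM-scaled CPM of 6 inflammatory gene lists (y axis, log scale) in each library of EA-BN-H, COPD and NC, with the lists along the x axis and symbols for the replicate number. EA-BN-H replicate 2 is the highest library for the GTPases (5790 CPM), type I interferon (3580 CPM), CXC chemokine (1150 CPM), cytokine (1190 CPM) and neutrophil lists (474 CPM), while EA-BN-H replicates 1 and 3 lie near or below the lowest COPD library.

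The direction of these lists depended on the libraries and the settings of the fit. The median log2 fold change was 0.35 for the GTPases, 0.13 for CXC chemokines, 0.27 for cytokines and receptors and 0.65 for neutrophil genes with all libraries. Without EA-BN-H replicate 2 the same medians were -0.85, -1.41, -1.19 and -1.46, with 3 GTPases, 7 CXC chemokines, 7 cytokines or receptors and 3 neutrophil genes lower at an unadjusted p under 0.05. Without EA-BN-H replicate 1 they were 0.75, 0.50, 0.67 and 1.13, and with a replicate block -0.03, -0.25, -0.13 and -0.01. Type I interferon-stimulated genes had a median of -0.037 with all libraries and 0.279 without EA-BN-H replicate 1. Without EA-BN-H replicate 2 it was -0.805, with 15 of 31 genes lower at an unadjusted p under 0.05. For CC chemokines and MHC class II genes the medians were -0.021 and -0.244 with all libraries. Without EA-BN-H replicate 2 they were -0.632 and -1.12, and without EA-BN-H replicate 1 they were 0.338 and -0.003. CXC chemokines also had a negative median without COPD replicate 2, at -0.18, and with library totals alone, at -0.09. The labels give no ground to leave out EA-BN-H replicate 2, and no gene of the table passed the adjusted p of edgeR in that fit either. The COPD libraries differed among themselves too, with COPD replicate 2 the lowest of the 3 in each of these lists.

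Single genes showed the size of this spread. Il1b, the precursor of interleukin-1 beta, had 12.4, 198 and 12.4 CPM in EA-BN-H, against 52.0, 11.1 and 50.2 CPM in COPD and 1.01, 2.94 and 2.22 CPM in NC. Cxcl9, which attracts T cells, had 7.38, 114 and 10.1 CPM in EA-BN-H, against 59.4, 11.98 and 67.0 CPM in COPD and no count in NC. Lcn2, an iron-binding protein of neutrophils and inflamed epithelium, had 124, 823 and 103 CPM in EA-BN-H, against 357, 100 and 523 CPM in COPD. In EA-BN-H replicates 1 and 3 all 3 genes lay near COPD replicate 2. Of the 15 genes of proteins assayed elsewhere in the study, in lung or lavage fluid, none had an unadjusted p under 0.05. Nlrp3, the sensor of the inflammasome, stood at 18.4, 62.9 and 11.3 CPM in EA-BN-H and 21.4, 12.1 and 27.2 CPM in COPD, and Casp1, its protease, at 6.37, 17.8 and 4.92 CPM in EA-BN-H and 12.2, 3.00 and 13.1 CPM in COPD. Txnip, a thioredoxin-binding protein that can activate the sensor, varied little at 263, 200 and 239 CPM in EA-BN-H and 249, 218 and 260 CPM in COPD. Its log2 fold change was -0.05 with a 95% interval of -0.55 to 0.45. The paper also names 8 genes of inflammasome assembly from its RNA-seq and reports them as lower with EA-BN. Here 5 of these were positive and 3 negative, and none had an unadjusted p under 0.05. Their median log2 fold change was 0.117, and -0.778 without EA-BN-H replicate 2.

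Genes of cell division were negative in 23 of 24 cases, with a median log2 fold change of -0.34 and 1 lower at an unadjusted p under 0.05. The list summed to 236, 464 and 228 CPM in EA-BN-H, 523, 240 and 433 CPM in COPD and 115, 102 and 107 CPM in NC, so the exposed groups overlapped through EA-BN-H replicate 2 and COPD replicate 2. Their median was -0.70 without EA-BN-H replicate 2 and -0.04 without COPD replicate 1.

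**Figure D4:**
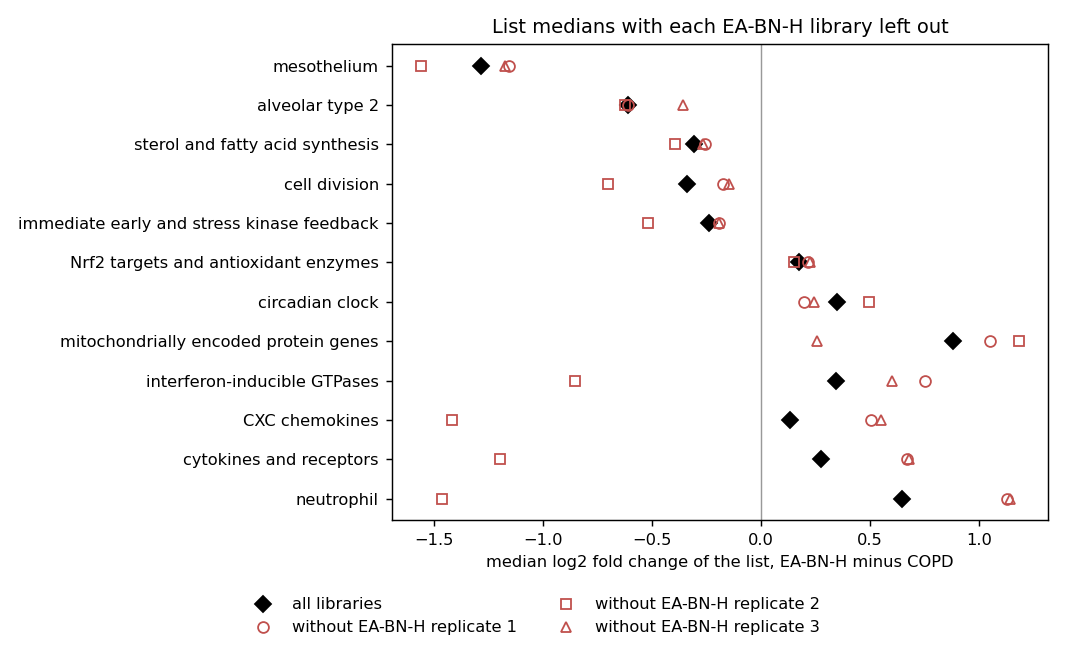
Median log2 fold change of 12 gene lists, EA-BN-H minus COPD (x axis), with all libraries (filled diamonds) and with EA-BN-H replicate 1, 2 or 3 left out (open symbols). The 4 inflammatory lists at the bottom lie to the right of 0 with all libraries and between -1.46 and -0.85 without EA-BN-H replicate 2, while the mesothelium, alveolar type 2, lipid, cell division and immediate early lists stay to the left of 0 and the Nrf2, clock and mitochondrial lists to the right. The type I interferon, CC chemokine and MHC class II lists are not drawn. Their medians with all libraries were -0.037, -0.021 and -0.244.

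The table is deposited per transcript, and the same test was run on 48381 transcripts. At an unadjusted p under 0.05, 535 transcripts were higher in EA-BN-H (1.11% of those tested) and 376 lower (0.777%), and they belonged to 809 genes. Of these 911 transcripts 842 came from genes whose summed count had an unadjusted p above 0.05. None passed an adjusted p under 0.05 in edgeR, while DESeq2 called 326 higher and 205 lower. The spread between libraries was wider per transcript than per gene, where the biological coefficient of variation was 1.5 for transcripts and 0.438 for genes. A transcript's count is an estimate wherever isoforms share exons, so reads can be moved between isoforms of a gene from library to library.

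The smallest adjusted p of edgeR among transcripts, 0.231, belonged to an isoform of Ube3b, a ubiquitin ligase gene at chr5:114380620-114421169 of mm10. NM_054093, its main RefSeq isoform in COPD and NC, had 4.75, 6.40 and 5.11 CPM in EA-BN-H, against 69.3, 73.7 and 69.1 CPM in COPD and 57.3, 29.4 and 59.0 CPM in NC (log2 fold change -3.70, standard error 0.35). It took 5.08%, 7.22% and 5.80% of the Ube3b counts in EA-BN-H, and 78.5%, 95.3% and 84.6% in COPD. In EA-BN-H the counts were on the predicted isoforms XM_006530126, with 36.0%, 37.3% and 28.4%, and XM_011248161, with 45.2%, 45.3% and 49.9%. The same 2 isoforms took at most 0.442% and 16.0% in any COPD library. The gene as a whole lay close together, at 98.2, 82.4 and 87.7 CPM in EA-BN-H and 84.7, 82.0 and 77.0 CPM in COPD (log2 fold change 0.14, 95% interval -0.22 to 0.50). With a filter of at least 10 counts in each exposed library, which leaves fewer transcripts to test, NM_054093 had an adjusted p of 0.0355 in edgeR.

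**Figure D5:**
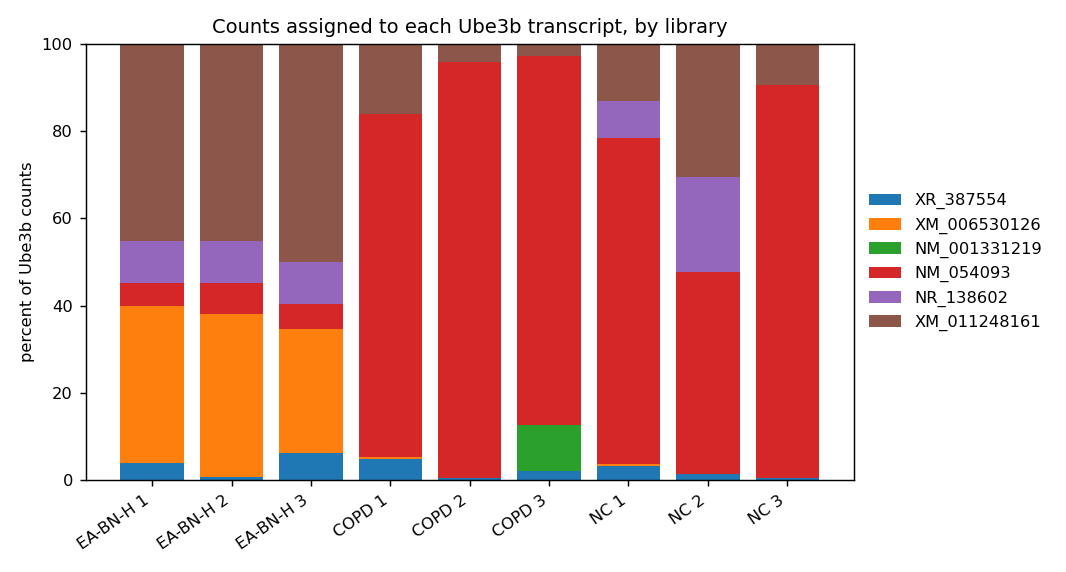
Percent of the Ube3b counts (y axis) that the deposited table assigns to each of 6 isoforms, stacked per library of EA-BN-H, COPD and NC (x axis). NM_054093 takes 5.08 to 7.22% in the EA-BN-H bars, 78.5 to 95.3% in the COPD bars and 46.2 to 90.0% in the NC bars, and the EA-BN-H bars look alike.

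Other isoforms showed an all-or-none pattern under a stable gene. NM_001164037 of Ly6e, a surface protein that blocks entry of some viruses, had 48.2, 38.5 and 25.9 CPM in EA-BN-H and no count in COPD or NC, at least 401-fold higher in EA-BN-H with 3 counts per COPD library as the floor, while the log2 fold change of the gene was -0.22. XM_006502699 of Patj, a scaffold protein of tight junctions, had no count in EA-BN-H or NC and 17.3, 18.5 and 18.8 CPM in COPD. This is at least 150-fold lower in EA-BN-H, and the gene stood at -0.23. Isoforms of Mtus1, a microtubule-binding protein, of Kalrn, a guanine nucleotide exchange factor, and of Hspbp1, a co-chaperone of Hsp70, were counted in every EA-BN-H library and in no COPD library. Their EA-BN-H means were at least 156-fold, 57.8-fold and 57.7-fold above that floor. The Mtus1 isoform was uneven, at 0.822, 24.1 and 18.8 CPM in EA-BN-H. In NC the Mtus1 isoform had 34.9, 29.4 and 20.5 CPM, that of Kalrn 8.94, 5.52 and 14.1 CPM and that of Hspbp1 5.62, 4.28 and 2.76 CPM.

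Such patterns ran in both directions. Among the 48381 transcripts tested, 109 transcripts of 95 genes had at least 10 counts in each EA-BN-H library and 0 in each COPD library. The reverse was found for 89 transcripts of 82 genes. A transcript at 0 in a whole group passed the filter on low counts only through the other groups, so these counts describe the table and test nothing. Of the 109, 9 had at least 10 counts in all NC libraries and 24 had none in NC, and of the 89 these numbers were 5 and 14. Only 2 in each direction belonged to a gene with an unadjusted p under 0.05. The part that the assignment of shared reads has in these patterns was not tested.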

How the data were processed

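Whole-lung RNA was sequenced in 9 libraries, 3 each of EA-BN-H, COPD and NC. The authors deposited, for 129299 RefSeq transcripts on mm10, an estimated count in whole numbers that was not normalized, made by trimming, alignment and transcript assembly. The deposited FPKM and TPM were scaled by the authors for transcript length and library size. Tools listed in the processing notes of the submitters are HISAT2 2.1.0, StringTie 2.1.3b, Trimmomatic 0.38 and DESeq2, whereas the paper gives HTSeq and another library kit. Whether counting used strand is not given in the sources used here, so antisense neighbours cannot be separated. All value columns of the table were mapped to samples.

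Counts were summed to 45777 genes. Genes passing filterByExpr were kept (18716, of which 15124 are nuclear and protein-coding), libraries were scaled by TMM, and edgeR 4.0.16 (R 4.3.3, quasi-likelihood, robust) was fitted to all groups with the contrast EA-BN-H minus COPD, on genes and on transcripts, with Benjamini-Hochberg adjustment. DESeq2 1.42.0 and limma 3.58.1 served as alternatives, beside other scalings and filters, a replicate block and leaving out each library. The fits were also run on counts simulated from the fitted model, which cannot show how reads were assigned to isoforms. An exact permutation test of 3 against 3 libraries cannot go below 0.1 and was not used. The replicates are not stated to be separate animals, and p-values then measure only the spread between these samples.

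Members, the 53 gene lists and rules were chosen with earlier results of these data known. The named genes are the largest rises and falls without overlap among DEGs (mean of at least 50 counts), up to 4 genes of each list, taken by smallest p, genes the study names, genes that DESeq2 called, and 6 transcripts. Not every gene chosen by this rule is reported. Fos, Zfp36, Ier5, Jun, Cry1, Srebf1, Srebf2, Cxcl9 and Lcn2 lie outside that rule and were named after their values were seen. The same holds for the muscle genes given beside Myl7. The histone list matched no symbol in the table. Promoter letters were searched on both strands in the 250 bases before RefSeq starts.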

Additional observations from a re-analysis of the deposited data

How the results depend on the processing

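No gene passed an adjusted p under 0.05 under any edgeR or limma setting, and DESeq2 called 3 with or without shrunken fold changes. DEGs, 94 higher and 56 lower in EA-BN-H, numbered 153 and 85 with DESeq2, 58 and 19 with shrunken fold changes, 30 and 277 with library totals, 171 and 102 without a filter on low counts, 46 and 369 with limma on FPKM, and 17 and 1668 or 0 and 263 with limma on TPM at a pseudocount of 0.1 or 1. With at least 10 counts in each exposed library 25 were lower. The median of all genes was -0.41 with library totals and -0.70 with TPM at 0.1, so the share of DEGs that were higher, 62.7%, was 9.77% and 1.01% there. Leaving out each library gave 42 (without EA-BN-H replicate 3) to 353 (without EA-BN-H replicate 2) higher DEGs and 39 (without COPD replicate 3) to 393 (without EA-BN-H replicate 2) lower. With a replicate block there were 65 higher and 40 lower and 0 genes or transcripts were called. Residuals of same-numbered libraries correlated at -0.04, -0.24 and -0.08, and those of other pairs at -0.195 to 0.268. Residuals centred within groups of 3 are tied to each other, so these values cannot decide whether the numbers pair the samples, and the labels do not say. Among transcripts DESeq2 called 531, and edgeR called 1 with at least 10 counts in each exposed library.

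Of 55 named genes that were refitted, which include each gene given with a log2 fold change, 48 kept their direction under every alternative. With limma on TPM at a pseudocount of 0.1 and of 1, Dbp was at -0.145 and -0.13, Per3 at -0.12 and -0.11, Osgin1 at -0.057 and -0.035, Fkbp5 at -0.157 and -0.074 and the gene-level log2 fold change of Ube3b at -0.526 and -0.471, without correction for the shift of all genes. Ube3b was at -0.195 with limma on FPKM and -0.282 with library totals. Leaving out each library gave -0.154 to 0.053 for Srebf2 and -0.144 to 0.049 for Txnip, with positive values without EA-BN-H replicate 2 and, for Txnip, also without COPD replicate 3 (0.004). With 3 libraries a group, EA-BN-H replicate 3, with a 7SL share of 63.5%, had the fewest counts of the exposed libraries on nuclear protein-coding genes.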
